A study of Caenorhabditis elegans with 2 samples.

Results

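The cytosolic ribosomal protein genes of Caenorhabditis elegans encode the proteins of the ribosome that translates messenger RNA in the cytoplasm. They were taken here as every protein-coding gene of the Ensembl annotation whose symbol begins with rpl-, rps- or rla- and a number, which gave 81 of 19973 protein-coding genes. Of these, 47 are large-subunit genes (rpl), 31 are small-subunit genes (rps) and 3 are genes of the P stalk (rla), the flexible arm of the large subunit that recruits translation factors. The rule reads gene symbols alone, and whether each product is part of the mature ribosome was not checked. The set was picked for description with earlier results of these data known. The question here was how the chromatin immunoprecipitation (ChIP-seq) signal of the nuclear hormone receptor NHR-76 lay along these genes.

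The data are 2 libraries of 1 group, replicates 1 and 2 of the labels, with no second group. Both came from whole L1 larvae of mixed sex and unknown age, the larval stage that follows hatching. The worms were of strain OP203, genotype unc-119(ed3) III; wgIs203, in which a stable transgene supplies NHR-76 carrying GFP and FLAG at its C-terminus. The labels give neither the promoter of the transgene nor whether the larvae were grown as separate cultures, so the spread between the libraries may be partly technical. Whole animals were sonicated, so the signal of all tissues is mixed. A ChIP without the tagged receptor was not analysed here, so the values describe where signal lay in these libraries and not how far it depended on the receptor.

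Ribosomal protein genes are among the most strongly transcribed genes of a growing animal, and the proteins are made in matched amounts and assembled on ribosomal RNA in the nucleolus. In C. elegans most messenger RNAs of such genes are trans-spliced: a short spliced leader replaces the start of the transcript. The annotated 5' end of a trans-spliced gene is therefore often the splice acceptor and not the site where transcription begins, which lies further upstream. NHR-76 is a DNA-binding receptor known for its part in serotonin-driven fat loss. The placements of proteins in the ribosome given below are known from yeast and human ribosomes.

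For each gene the value read was the strongest deposited region whose summit lay within 1 kb of the annotated 5' end. In this way 3 deposited lists were read: the pooled reads, replicate 1 and replicate 2, each of 30000 regions. Signals are given as multiples of the median region of the same list (10.3, 6.5 and 6.07 in the caller's units), and rank 1 is the strongest region of a list. Another list holds the 248 thresholded peaks, which are the 248 strongest pooled regions, down to 2.99 times the median. The number of reads behind the lists is unknown, so no interval could be given for a signal, and with 1 group there was no test between conditions.

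Of the 12 ribosomal protein genes with a thresholded peak, 9 had it upstream of the gene, and the sequences under 7 of them show what these regions contain. The upstream peaks of rpl-12 and rpl-24.2 are not shown. Each line below gives the 151 bases centred on the summit, on ce11 (the same assembly as WBcel235; RefSeq genome sequence), read 5' to 3' on the strand of the gene. Capitals mark GAGAGA or its complement TCTCTC, and the letters GGCCTAAA, both taken up again further on.
rpl-3 (chrIII:3867503-3867653, plus strand): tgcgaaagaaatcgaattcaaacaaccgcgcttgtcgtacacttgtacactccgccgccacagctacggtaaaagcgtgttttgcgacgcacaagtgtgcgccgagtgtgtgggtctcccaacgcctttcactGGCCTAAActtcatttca
rpl-15 (chrIV:654884-655034, minus strand): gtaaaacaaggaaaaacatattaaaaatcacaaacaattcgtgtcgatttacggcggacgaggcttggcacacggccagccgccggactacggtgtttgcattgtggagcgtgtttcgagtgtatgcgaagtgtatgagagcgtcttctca
rpl-35 (chrIII:7854621-7854771, plus strand): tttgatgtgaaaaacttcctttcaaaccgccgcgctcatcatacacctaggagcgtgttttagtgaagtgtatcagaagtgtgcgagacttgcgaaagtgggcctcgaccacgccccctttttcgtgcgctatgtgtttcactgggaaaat
rpl-20 (chrIV:4749992-4750142, minus strand): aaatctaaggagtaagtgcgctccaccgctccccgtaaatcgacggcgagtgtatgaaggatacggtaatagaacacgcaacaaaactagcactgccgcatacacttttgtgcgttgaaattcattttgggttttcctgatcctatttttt
rpl-11.2 (chrX:2242911-2243061, minus strand): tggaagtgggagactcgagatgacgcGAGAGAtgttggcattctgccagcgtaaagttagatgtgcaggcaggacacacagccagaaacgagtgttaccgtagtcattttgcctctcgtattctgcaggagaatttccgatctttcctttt
rps-1 (chrIII:4475604-4475754, plus strand): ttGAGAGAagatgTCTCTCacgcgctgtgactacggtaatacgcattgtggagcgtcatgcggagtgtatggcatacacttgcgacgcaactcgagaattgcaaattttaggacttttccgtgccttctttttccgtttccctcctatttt
rps-12 (chrIII:5679051-5679201, plus strand): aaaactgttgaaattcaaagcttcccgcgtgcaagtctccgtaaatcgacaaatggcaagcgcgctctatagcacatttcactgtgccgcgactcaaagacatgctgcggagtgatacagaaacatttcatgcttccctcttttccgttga

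The 7 windows lay in intergenic sequence or in non-coding RNA annotations, and their GC content ran from 43.7% at rpl-20 to 51.7% at rpl-3. The receptor's family is known to bind the half-site AGGTCA, and none of the 7 windows held it on either strand. The absence says only that these letters were not within 75 bp of the summit, and 5.24% of all 248 thresholded peaks held them there.

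Nearly every ribosomal protein gene had a listed region nearby, and many of these regions were among the strongest. In the pooled list 77 of 81 genes (95.1%) had a region within 1 kb, where 51.7% of all protein-coding genes did. The counts were 73 genes in replicate 1, with 51% of all genes, and 75 in replicate 2, with 50.9% of all genes. A thresholded peak lay within 1 kb of 12 of the 81 (14.8%), against 1.03% of all protein-coding genes. A pooled region with a deposited q-value of 0.05 or less, a wider criterion, was met by 23 genes (28.4%), against 2.51%. In the libraries alone the same criterion was met by 23 genes in replicate 1, against 2.48% of all genes, and by 34 in replicate 2, against 5.45%. It was met in both libraries by 14 genes (17.3%), against 1.17%, and at 13 of these 14 the regions of the libraries overlapped; at rpl-1 they lay apart.

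Weaker regions followed the same course as the peaks. By pooled rank 1000, 32 of the 81 genes (39.5%) had been reached, against 3.3% of all protein-coding genes. By rank 3000 it was 52 genes (64.2%) against 8.07%, and by rank 10000 it was 67 (82.7%) against 21.8%. The median strongest region stood at 1.85 times the list median in the pooled list, 1.65 in replicate 1 and 1.73 in replicate 2. Over all listed protein-coding genes the median was 1.07 in each of the 3 lists. These medians cover listed genes only, and a gene with more regions nearby has more chances of a strong one: 56 of the 81 genes (69.1%) had at least 2 pooled regions within 1 kb, against 14% of all genes. The part of that number in the ranks was not tested.

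Genes of like function reached lower shares. Of 70 mitochondrial ribosomal protein genes, which serve the separate ribosome of the mitochondrion, 52 were listed and 1 had a thresholded peak, with a median of 1.17 times. Of 39 translation initiation and elongation factor genes, 27 were listed and 3 had a peak, with a median of 1.32 times. Of 33 proteasome subunit genes, whose products form the main protease of the cytosol, 24 were listed and 1 had a peak, with a median of 1.23 times. At rank 1000 the shares were 39.5% for cytosolic ribosomal protein genes, 20.5% for translation factors, 6.06% for proteasome subunits and 4.29% for mitochondrial ribosomal proteins. The differences between these sets were not tested.

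**Figure D1:**
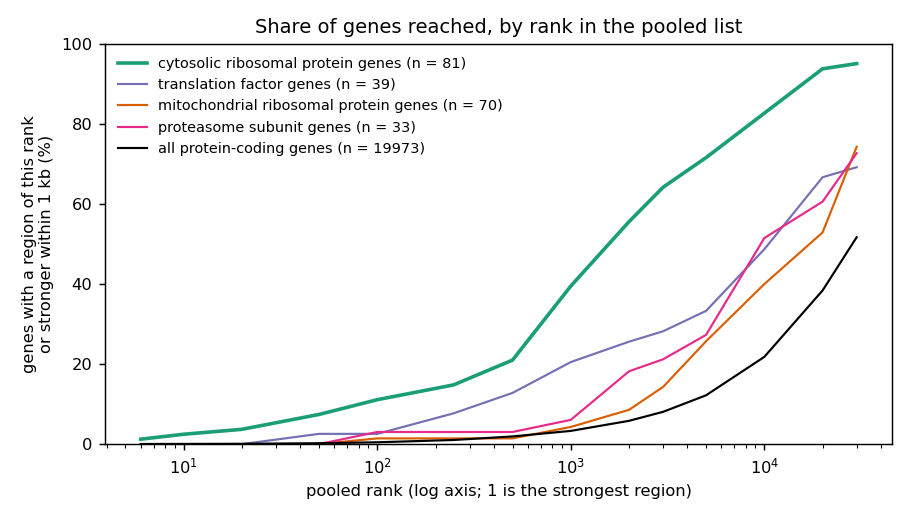
The share of genes (vertical axis, %) that have a pooled region of a given rank or stronger within 1 kb of the 5' end, against that rank on a log axis, for 5 sets of genes. The cytosolic ribosomal protein genes lie above the other sets at ranks 1000 (39.5%) and 10000 (82.7%), and all protein-coding genes stand at 3.3% and 21.8% there.

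The strongest regions belonged to large-subunit genes. Beside rpl-3, whose protein reaches towards the catalytic centre of the ribosome, the region ranked 6 in the pooled list at 8.24 times the median. It reached 3.57 times in replicate 1 and 10.18 times in replicate 2, where it was the strongest region of the whole list, so the libraries averaged 6.88 ± 4.67 (SD, n = 2). Replicate 2 was the higher by a factor of 2.85, and the summits lay close together, at -268 bp from the 5' end in replicate 1 and at -273 bp in replicate 2 (negative is upstream). Beside rpl-15, a protein of the large subunit core, the pooled region ranked 17 at 7.09 times, with 3.86 in replicate 1 and 8.16 in replicate 2 (6.01 ± 3.04, SD, n = 2). Its summit lay 383 bp upstream, and this gene had 4 regions within 1 kb. The height of both regions rested largely on replicate 2.

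Beside rpl-35, whose protein sits near the exit of the tunnel for the growing chain, the pooled region ranked 37 at 5.84 times. It reached 3.38 times in replicate 1 and 6.02 in replicate 2, and its summit lay 438 bp upstream with no other protein-coding 5' end nearer. Beside rpl-20 the region ranked 45 at 5.45 times, with 3.18 and 5.05 times in replicates 1 and 2. Its summit, 289 bp upstream of rpl-20, was 173 bp from the 5' end of the divergent gene Y17G9B.5, so that region is shared by both promoters. Beside rpl-12, whose protein forms the base on which the P stalk stands, the region ranked 63 at 4.95 times, with 2.63 and 4.70 times in the libraries. It was the closest of the upstream ones, with its summit 22 bp before the annotated 5' end.

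The remaining large-subunit genes with a peak departed from that picture. Beside rpl-11.2, which encodes a protein that binds 5S ribosomal RNA, the region ranked 71 at 4.86 times, and here replicate 1 was the higher, with 4.79 times against 2.73 in replicate 2. The summit lay 368 bp upstream, and the region overlapped 2 non-coding annotations, AH9.7 and linc-78. Beside rpl-24.2 the region ranked 189 at 3.24 times, with nearly equal values of 3.18 and 2.71 times, 131 bp upstream. That region overlapped C03D6.1, a protein-coding gene on the opposite strand. The gene rpl-27 had the second strongest region of all 81, at rank 7 and 8.18 times (5.69 in replicate 1 and 7.32 in replicate 2). That summit lay 707 bp beyond the 5' end of rpl-27, past its 3' end, and 71 bp from the 5' end of egl-30, the gene of a Gq alpha subunit. The rpl-30 region, rank 212 at 3.15 times (2.76 and 2.29), also lay past the 3' end, 751 bp from the 5' end, and overlapped the neighbour madf-10. For these 2 genes the 1 kb rule counted a region that does not lie at their own promoter.

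Of 31 rps genes 3 had a thresholded peak, where 9 of 47 rpl genes and 1.03% of all protein-coding genes did. These counts include the peaks past the 3' end at rps-25, rpl-27 and rpl-30. The median pooled values were 1.66 times for rps and 1.92 for rpl. The order of the medians turned between the libraries, with 1.62 for rps and 1.84 for rpl in replicate 1 and 1.73 and 1.68 in replicate 2. The difference between the subunits was not tested. Beside rps-12, a protein of the head of the small subunit, the region ranked 43 at 5.51 times, with the close values of 4.09 times in replicate 1 and 4.91 in replicate 2 (4.50 ± 0.58, SD, n = 2). Its summit lay 172 bp upstream of rps-12 and 121 bp from the divergent gene ska-3, which encodes a kinetochore protein. Beside rps-1 the region ranked 75 at 4.80 times, with 2.72 and 5.47 times in the libraries, 239 bp upstream, over the non-coding annotations F56F3.10 and F56F3.11. The rps-25 region ranked 205 at 3.17 times, with 1.97 and 2.88 times, and was not among the 248 strongest of either library. Its summit lay 957 bp from the 5' end of rps-25, past the gene, and 10 bp from that of inx-7, which encodes a gap junction protein. The strongest gene just outside the threshold was also of the small subunit: rps-28, at rank 255 and 2.96 times (2.85 and 2.36), with its summit 450 bp upstream, against 3.15 times at rpl-30, the weakest inside.

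The count by q-value moved between the libraries for the small subunit. A q-value of 0.05 or less was met by 3 of 31 rps genes in replicate 1 and by 14 in replicate 2, while the rpl counts were 19 and 18 of 47. Over all protein-coding genes the shares were 2.48% in replicate 1 and 5.45% in replicate 2. The list of replicate 2 held 2004 regions at that q-value and that of replicate 1 held 794, so the criterion is met at a lower multiple in replicate 2.

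All 3 P stalk genes were listed in every list, with no thresholded peak. The region of rla-0, the stalk protein that anchors the others, ranked 571 at 2.27 times (1.69 and 2.25 in replicates 1 and 2), 163 bp upstream. That of rla-1, which encodes an acidic stalk protein, ranked 334 at 2.70 times (2.37 and 2.05) but lay past the 3' end, over arl-13 and the non-coding Y37E3.26. The region of rla-2, the other acidic stalk protein, ranked 2156 at 1.66 times. The strongest regions of replicates 1 and 2 at rla-2 (1.33 and 1.15 times) did not overlap. Only that of replicate 2 overlapped the pooled region, so these values belong to different places. At rla-0 and rla-1 the regions of the libraries overlapped, and replicate 1 was the higher for rla-1 and replicate 2 for rla-0.

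**Figure D2:**
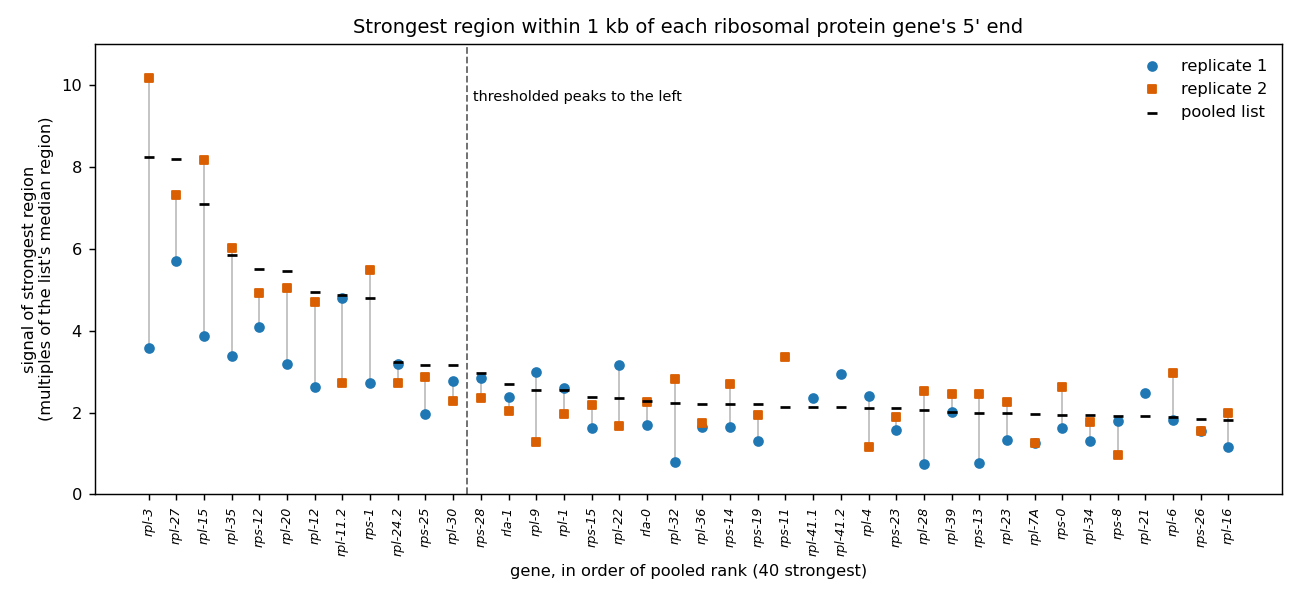
Signal of the strongest region within 1 kb of the 5' end for the 40 ribosomal protein genes with the strongest pooled regions, in multiples of each list's median region (vertical axis), with circles for replicate 1, squares for replicate 2 and dashes for the pooled list. The 12 genes left of the broken line have a thresholded peak, and the widest gap between the libraries is at rpl-3 (3.57 and 10.18 times).

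The members with a q-value of 0.05 or less in both libraries were rpl-1, rpl-3, rpl-11.2, rpl-12, rpl-15, rpl-20, rpl-24.2, rpl-27, rpl-30, rpl-35, rps-1, rps-12, rps-28 and rla-1. Of these, 7 (7 of 81, 8.64%, against 0.416% of all genes) also ranked within the 248 strongest of each library, namely rpl-3, rpl-15, rpl-20, rpl-27, rpl-35, rps-1 and rps-12. These 7 were thus among the strongest of both libraries taken separately, though replicate 2 gave the higher value at each. Replicate 1 placed rpl-9, rpl-22, rpl-41.2 and rps-28 among its 248 strongest, which the pooled list did not, and replicate 2 placed rps-11 there. By chromosome, thresholded peaks lay at 4 of 18 genes on III (1.7% of all genes there), 4 of 18 on IV (0.823%), 3 of 25 on I (1.29%) and 1 of 2 on X (0.842%). They lay at 0 of 10 on II (0.928%) and 0 of 8 on V (0.821%).

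Some genes had low values or none in the pooled list. The 4 genes outside the pooled list were rpl-2, rpl-25.1, rpl-37 and rps-7. Of these rpl-37 was in no list, rpl-2 was listed in replicate 2 alone at 1.55 times, and rpl-25.1 and rps-7 had values below the median of both libraries, at 0.95 and 0.98 times and at 0.88 and 0.86 times. A list of 30000 regions has a lowest signal of 0.72 to 0.75 times its median, so an unlisted gene is below that. How far below is unknown, and it need not be at 0. The listed genes with pooled values below the median were rps-27 (0.98), rpl-38 (0.96), rpl-11.1 (0.93), rps-16 (0.91) and rpl-18 (0.76). A gene with a low pooled value was not always low in each library. The gene rps-16 reached 1.36 times in replicate 1 and 2.06 in replicate 2. The gene rps-27 reached 1.62 in replicate 2 and was unlisted in replicate 1. At both genes the region of replicate 2 did not overlap the pooled one, so those values belong to other places.

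Among genes that share a number the widest differences were in the rpl-11 and rpl-24 pairs. The symbols do not say whether such genes encode copies of the same protein. The pair rpl-11.1 and rpl-11.2 had ranks 18240 and 71, with pooled values of 0.93 and 4.86 times, and rpl-11.1 was not listed in replicate 2. The pair rpl-24.1 and rpl-24.2 had ranks 8849 and 189, with 1.18 and 3.24 times. For rpl-25.2 the rank was 15049 at 1.00 times, with its partner rpl-25.1 not in the pooled list. In replicates 1 and 2 the former stood at 1.52 and 1.15 times and the latter at 0.95 and 0.98. The genes rpl-7 and rpl-7A, which share a number but encode different proteins, ranked 2758 and 1010. The genes rpl-36 and rpl-36.A, grouped here by number alone, ranked 620 and 1573. The neighbours rpl-41.1 and rpl-41.2, which encode the smallest protein of the ribosome, were assigned the same region at rank 716, 246 bp upstream of rpl-41.2 and past the 3' end of rpl-41.1. The divergent genes rpl-36 and rps-14 also shared a region, rank 620 at 2.21 times, 276 bp upstream of the former and 387 bp upstream of the latter. The 77 listed genes thus had 75 distinct regions, and paired genes are not separate observations.

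The summits of the strongest regions were unevenly spread around the annotated 5' ends. Of the 77 listed genes, 49 (63.6%) had the pooled summit upstream of the gene, 16 inside it and 12 past its 3' end. Of the 10328 listed protein-coding genes 52.7% had it upstream, with 4570 inside the gene and 320 past its 3' end. Among the 49 upstream summits the median distance was 333 bp, with quartiles at 265 and 387 bp, where that of all genes was 429 bp with quartiles at 207 and 706 bp. In the band from 101 to 500 bp upstream lay 39 of 77 (50.6%), against 23.9% of all genes. The 100 bp from 400 to 300 bp upstream alone held 19 of 77 summits (24.7%), against 5.48% of all genes. Another 16 of the 77 summits lay 700 to 1000 bp beyond the 5' end. In steps of 100 bp that stretch held 7.79%, 6.49% and 6.49% of the 77, against 4.01%, 4.22% and 4.41% of all genes. In the libraries the band from 101 to 500 bp held 34.2% of the listed genes in replicate 1, with all genes at 22.6%, and 45.3% in replicate 2, with 2459 of 10169 listed genes.

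The genes are short, with a median length of 754 bp against 2027 bp for all protein-coding genes, so a window of 1 kb often reaches past the 3' end. Translation factors, at a median length of 2152 bp, had 51.9% of their pooled summits in the same upstream band, and mitochondrial ribosomal proteins had 19.2%.

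**Figure D3:**
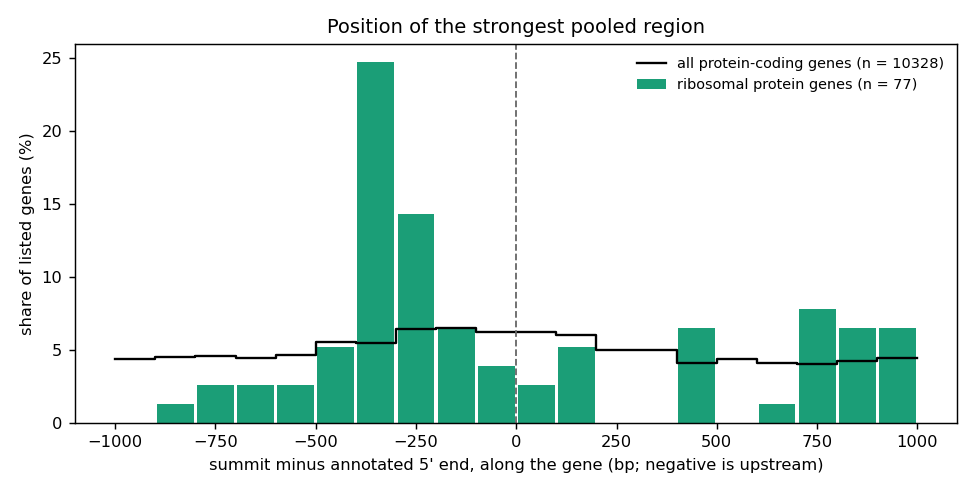
Distance from the annotated 5' end to the summit of the strongest pooled region (horizontal axis, bp along the gene, negative upstream) as a share of listed genes (vertical axis, %), with bars for the 77 listed ribosomal protein genes and a line for the 10328 listed protein-coding genes. The tallest bar, from 400 to 300 bp upstream, holds 24.7% of the ribosomal protein genes, and the line stands at 5.48% there.

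The upstream band was less often occupied among the weaker regions. Of the 12 genes with a thresholded peak 8 (66.7%) had it in the band from 101 to 500 bp upstream, as did 8 of the next 11 (72.7%), 15 of the next 29 (51.7%) and 8 of the 25 genes beyond rank 3000 (32%). Over all protein-coding genes the same 4 groups of rank stood at 52.2%, 45.5%, 31% and 21.6%. Overlap between the libraries fell from the first group to the last: the regions of replicates 1 and 2 overlapped at 12 of 12, 8 of 11, 8 of 24 and 4 of 19 genes listed in both. Over all genes the shares were 94%, 77.7%, 65.9% and 37.8%. The thresholded list was made from both libraries, and a region pooled over both is strong where both have signal, so falling overlap with rank is in part built into these groups. Beyond rank 3000 a ribosomal protein gene's strongest region was thus a different one in each library at 15 of 19 genes.

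Most of the annotated 5' ends had the letters of a splice acceptor directly before them. Below are the 24 bases before and the 8 bases after the annotated 5' end of 6 genes with a thresholded peak, on the strand of the gene (ce11, RefSeq genome sequence), with capitals at TTNCAG, the usual form of a nematode splice acceptor, directly before the 5' end. The gene rpl-35 has AG there without the full form, and rpl-12 has neither.
rpl-3 (chrIII:3867830-3867861, plus strand): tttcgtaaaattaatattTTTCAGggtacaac
rpl-15 (chrIV:654569-654600, minus strand): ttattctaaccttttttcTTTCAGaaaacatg
rps-1 (chrIII:4475894-4475925, plus strand): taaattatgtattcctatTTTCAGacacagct
rps-12 (chrIII:5679274-5679305, plus strand): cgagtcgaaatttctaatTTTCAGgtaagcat
rpl-35 (chrIII:7855110-7855141, plus strand): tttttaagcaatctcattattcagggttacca
rpl-12 (chrIV:13240644-13240675, minus strand): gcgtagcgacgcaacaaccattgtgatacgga

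In 69 of the 81 genes (85.2%) the annotated 5' end directly followed AG, against 27.6% of all protein-coding genes, and in 61 (75.3%) it followed TTNCAG, against 19%. The shares with TTNCAG were 54.3% for mitochondrial ribosomal proteins, 48.7% for translation factors and 42.4% for proteasome subunits. For genes with AG, the median distance from the 5' end to the coding sequence was 8 bp, and the median upstream summit lay 339 bp away (43 genes). For the 12 genes without AG these were 35 bp and 216 bp (6 upstream genes), and rpl-12, whose summit lay 22 bp away, is the gene among them with a thresholded peak. The AG class is a description of the annotation, and the part of trans-splicing in the distances was not tested.

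For 50 of the 81 genes (61.7%) the next gene upstream lay on the opposite strand within 1000 bp or overlapped, against 21.3% of all protein-coding genes, 51.3% of translation factors and 63.6% of proteasome subunits. Of these 50 genes 7 (14%) had a thresholded peak, against 2.33% of all genes so arranged. For 9 of the 81 genes, against 20.6% of all genes, it lay on the same strand within 500 bp, with 1 peak, at rpl-27, and 22 (27.2%, against 58.2%) had neither arrangement, with 4 peaks (18.2%, against 0.645% of all genes so arranged), at rpl-3, rpl-35, rpl-11.2 and rps-25. The median pooled values were 1.88, 1.61 and 1.90 times. These counts take any peak within 1 kb of the 5' end. The peaks of rpl-30 (in the opposite-strand class), rpl-27 and rps-25 lay past the 3' end of the gene and not in its upstream sequence. Of the 12 thresholded peaks, 8 had the ribosomal protein gene's 5' end as the nearest protein-coding one. The exceptions were rpl-27, rps-12, rpl-20 and rps-25. Signal in a divergent intergenic region cannot be assigned to either gene alone from these lists.

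The libraries were compared over the 68 genes listed in both. Their strongest regions overlapped at 33 (48.5%), against 43.1% over the 5957 protein-coding genes listed in both. Within the groups of pooled rank given above the share was 100%, 72.7%, 33.3% and 21.1%, against 94%, 77.7%, 65.9% and 37.8% of all genes. At like rank it was thus below that of all genes in every group but the first. Across the 68 genes Pearson's r of the log2 multiples was 0.50 and Spearman's rho was 0.32, against 0.39 and 0.23 across all 5957. These are descriptions across genes, which share the libraries and in part the regions, and they were not taken within groups of rank. Replicate 2 was the higher at 39 of the 68, with a median ratio of 1.13.

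The widest differences were those of rpl-32 (0.80 times in replicate 1 and 2.83 in replicate 2, a ratio of 3.55), rpl-28 (0.74 and 2.53), rps-13 (0.76 and 2.45), rpl-3 (3.57 and 10.18) and rpl-29 (0.78 and 2.04). In the opposite direction were rps-30 (2.02 and 0.74, a ratio of 0.36), rpl-9 (a ratio of 0.42), rpl-31 (2.11 and 0.97), rps-5 (1.66 and 0.79) and rpl-4 (2.40 and 1.17). Of these 10 the regions overlapped by at least 1 bp at rpl-32, rpl-3, rps-30, rpl-9, rps-5 and rpl-4. Their summits lay 5 bp apart at rpl-3, 32 bp at rpl-9 and 70 bp at rpl-4, but 93 bp at rps-30, 136 bp at rps-5 and 171 bp at rpl-32, so the last 3 need not be the same place. At rpl-28, rps-13, rpl-29 and rpl-31 the libraries named different places, and the ratio compares 2 regions.

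**Figure D4:**
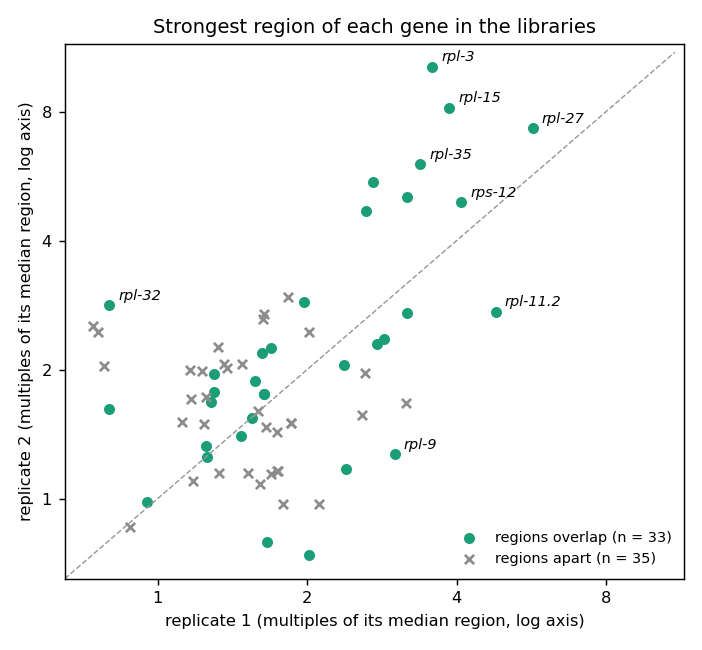
Strongest region of each of the 68 ribosomal protein genes listed in both libraries, in multiples of the median region of replicate 1 (horizontal, log axis) and replicate 2 (vertical, log axis), with filled circles where the regions overlap (n = 33) and crosses where they do not (n = 35); the broken line marks equal values. The crosses gather at low values, and rpl-3 and rpl-15 lie farthest above the line among the strong regions.

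Introns of ribosomal protein genes host small nucleolar RNAs (snoRNAs), which guide the modification of ribosomal RNA. Annotated inside the 81 genes were 19 snoRNA genes, in hosts such as rpl-6 (3 of them), rpl-7A, rpl-15, rps-12 and rps-29. None of the 77 strongest pooled regions overlapped a snoRNA, tRNA or snRNA gene (0 of 77), and 11 overlapped another RNA annotation. The same counts over all protein-coding genes were not made, so these cannot be read as low or high. Of the hosted snoRNA genes the best placed was R151.13 in rpl-6, under a pooled region at rank 1839, while the strongest region of rpl-6 itself ranked 1234, 342 bp upstream. The libraries differed here. In replicate 1 the strongest region overlapped a snoRNA for 5 genes, rpl-6, rps-29, rps-4, rpl-24.1 and rps-10, the last 2 through 1 region over D1007.20. In replicate 2 it did so for rpl-7 alone (F53G12.12). None of these 6 genes had a thresholded peak.

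The sequence under the regions was described with motifs looked for on both strands within 75 bp of the summit. GC content averaged 42.1% ± 7.9 (SD over 75 windows) at the ribosomal protein genes and 38.1% ± 7.35 over all 30000 pooled regions. At the 12 thresholded ones it was 47.6% ± 6.93, close to the 47.7% ± 6.91 of all 248 thresholded peaks. GC content was thus higher at the stronger regions, and its part in the ranks was not tested. The promoters of the 81 genes, from 250 bases before to 50 after the 5' end, averaged 33.5% where those of all genes averaged 34.8%.

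The nuclear receptor half-site AGGTCA was present in 3 of 75 windows (4%), against 4.28% of all pooled regions, and the related AGTTCA in 5 (6.67%) against 9.96%. Neither was present in the 12 thresholded windows (0 of 12 each), against 5.24% and 3.23% of all 248 thresholded peaks. GAGAGA was present in 5 of the 12 (41.7%), against 31.9% of all 248 thresholded peaks and 10.6% of pooled regions. Among the upstream windows shown above, only those of rpl-11.2 and rps-1 held it, the latter on both strands. Some of the 5 were therefore at peaks past the 3' end of the gene. Over all 75 windows GAGAGA was present in 7 (9.33%). The GC box GGGCGG was in 0 of 12, against 14.9% of thresholded peaks, and in 5 of 75 (6.67%), against 3.13% of pooled regions. The E-box CACGTG was in 0 of 12, against 5.24% of thresholded peaks, and in 2 of 75 (2.67%), against 3.35% of pooled regions. TGATAA, the GATA form, was in 1 of 12 and in 13 of 75 (17.3%), against 13.7% of pooled regions.

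Beyond fixed motifs, the 500 bases upstream of the genes shared several longer words. Counted over both strands, 13969 words of 8 letters occurred in these upstream sequences and in fewer than 5% of all genes' 500 bases. They were ordered by the difference in share, and the first 3 that did not share 5 letters in a row with a stronger word are described. They were thus chosen for that difference, with no test. The word GCGAGACC was upstream of 23 of 81 genes (28.4%), against 2.37% of all protein-coding genes. The word GGCCTAAA was upstream of 22 (27.2%), against 1.65%, and AAAGGCGC upstream of 19 (23.5%), against 3.22%. Of mitochondrial ribosomal protein genes 1.43%, 1.43% and 2.86% held them. Translation factors stood at 5.13%, 7.69% and 10.3%, and proteasome subunits at 15.2%, 0% and 21.2%. Of the genes shown next, rps-11, rpl-28 and rpl-21, none had a thresholded peak, and the pooled q-values were 0.0506, 0.0548 and 0.105. The gene rps-11 was unlisted in replicate 1 and rpl-21 in replicate 2, and at rpl-28 the regions of the libraries did not overlap. The next lines show 3 summit windows of 151 bases that hold such a word, in capitals with any GAGAGA, on the strand of the gene (ce11, RefSeq genome sequence).
rps-11 (chrIV:11602290-11602440, plus strand): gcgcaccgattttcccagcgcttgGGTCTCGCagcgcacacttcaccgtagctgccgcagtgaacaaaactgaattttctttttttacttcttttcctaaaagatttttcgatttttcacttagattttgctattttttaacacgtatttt
rpl-28 (chrV:12728367-12728517, minus strand): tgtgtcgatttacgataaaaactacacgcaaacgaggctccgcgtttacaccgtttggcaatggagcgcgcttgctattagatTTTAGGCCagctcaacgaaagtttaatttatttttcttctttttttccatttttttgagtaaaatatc
rpl-21 (chrIII:8130496-8130646, minus strand): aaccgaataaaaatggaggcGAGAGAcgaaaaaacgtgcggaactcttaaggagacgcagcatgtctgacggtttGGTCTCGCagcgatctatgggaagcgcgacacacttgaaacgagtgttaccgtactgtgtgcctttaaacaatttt

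The words stood at similar distances from the genes: the median match lay 278 bp upstream for GCGAGACC (quartiles 257 and 330.5), 219 bp for GGCCTAAA and 295 bp for AAAGGCGC. GCGAGACC was written on the other strand in 18 of 23 matches, as in rps-11 and rpl-21, where it reads GGTCTCGC. GGCCTAAA was on the strand of the gene in 17 of 25 and AAAGGCGC in 15 of 19. At the strongest regions GCGAGACC was within 75 bp of 11 of 75 summits (14.7%), against 0.503% of pooled regions, GGCCTAAA of 4 (5.33%) against 0.437%, and AAAGGCGC of 5 (6.67%) against 0.583%. Since the words were chosen from the same upstream bases in which many of these regions lie, an excess there follows in part from the choice. Most matches were not at the summit of their gene's own strongest region: in listed genes 9 of 21, 4 of 24 and 7 of 17 matches lay within 75 bp of it, and the median distances were 116, 178 and 101 bp.

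The strength of the regions was set beside the words, with no test. Of the 23 genes with GCGAGACC upstream, 2 had a thresholded peak (rps-25 and rpl-30, both with the peak past the 3' end) and 2 a pooled q-value of 0.05 or less. Of the 58 genes without it, 10 and 21 did. The median pooled values were 1.69 and 1.94 times. With GGCCTAAA 4 of 22 genes had a peak (rpl-3, rpl-15, rpl-35 and rpl-11.2), without it 8 of 59, and the medians were 1.91 and 1.81 times. Among those 4 peaks that of rpl-3 alone held the word within 75 bp of its summit. With AAAGGCGC 2 of 19 had a peak, without it 10 of 62, and the medians were 1.49 and 1.92 times.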

How the data were processed

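The authors deposited narrowPeak lists of regions for each library, for the pooled reads and after the irreproducible discovery rate (IDR) step, per the library listings deposited with them, which also name a control file as input. Signal values are those the authors deposited, in units of the caller and with no stated scaling to depth. The authors also deposited a value that the narrowPeak format defines as the −log10 of a q-value. The peak caller, IDR threshold, aligner and reads per library are not given in the sources used here.

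From the ce11 lists, the strongest region by signal with its summit within 1 kb of the 5' end was taken per protein-coding gene (Ensembl release 115, WBcel235), and divided by its list's median. Distances are 1-based and signed along the gene. Regions overlap when they share at least 1 bp. Python 3.11.15, numpy 2.4.6, pandas 2.3.3 and scipy 1.17.1 were used, and the assignment was checked on simulated data. No p-value was computed, since 2 libraries form 1 group.

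Genes named are those with a thresholded peak, the 10 strongest and those over short RNA genes. Those at a q-value of 0.05 or less in both libraries were also named, as were the 5 largest and 5 smallest library ratios. So were unlisted genes and genes that share a number. Others were named after their values were seen. The members, comparison sets and lists were chosen with earlier results of these data known. The 8-letter words were chosen after the sequences were seen. Alternatives were other distances (500 bp and 2 kb), nearest 5' ends, nearest regions, transcripts, q-values, either library alone, the 124 strongest peaks and the ce10 peaks.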

Additional observations from a re-analysis of the deposited data

How the results depend on the processing

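Of 50 alternative values, 36 stayed within 1.5 times the count reported and 14 moved. For the median the limit was 0.06, the SD of the medians of the 2 libraries. These are counts and a median of the ribosomal protein genes alone, which have no direction, so none could reverse. The 23 genes at a pooled q-value of 0.05 or less became 13 at 0.01, as a stricter criterion must lower it. The 14 genes at that q-value in both libraries became 9 with summits within 500 bp and 8 at 0.01. The 0 strongest regions over a snoRNA, tRNA or snRNA gene became 3 within 500 bp, 2 where the gene's own 5' end had to be the nearest, and 6 with the nearest region in place of the strongest; with 1 library left out the number was 1 to 5. The median of 1.85 became 1.69 within 500 bp, 1.94 within 2 kb, 1.61 with the own 5' end nearest, 1.39 with the nearest region, and 1.65 to 1.73 with 1 library left out; the cause was not tested. The count of 12 genes with a thresholded peak ran from 8 (own 5' end nearest) to 14 (replicate 1 alone), and was 9 in replicate 2 alone. Chosen after seeing the data, leaving out regions past the 3' end gave 9 peaks and 19 genes at a q-value of 0.05 or less, and counting shared regions once gave 75 listed ones. No paired analysis was possible because the series has 1 group. Unknown depth limits every value: a gene outside a list is below that list's lowest signal, and a difference between 2 libraries has no interval.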
